A study of Mus musculus with 4 samples.

Results

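The 7 genes described here, Trp53, Cdkn2a, Fat1, Kmt2d, Atm, Epha2 and Casp8, are drivers of human head and neck squamous cell carcinoma that were examined for mutations in 4 mouse oral cancer cell lines. They were chosen by name from the mutation panel of these lines, with earlier results of these data known. They are 7 of the 34685 genes in the expression table. All 7 are protein-coding genes, and all 7 were among the 14155 genes that reached at least 1 FPKM in at least 1 line. FPKM divides the sequenced fragments of a gene by the length of its transcripts and by the size of the library, so levels can be compared between genes. AOC3 and AOC3-LN were derived from the primary oral tumor and the lymph node metastasis of 1 male C57BL/6 mouse, and AOC11 and AOC11-LN from those of another. In both mice the carcinogen 7,12-dimethylbenzanthracene was swabbed onto the buccal mucosa until a tumor was overt, which took longer in the mouse of the AOC11 lines. Tumor cells were cultured, grown once under the skin of C57BL/6 mice, depleted of fibroblasts and cultured again, and 1 RNA library was made from each line. No normal oral epithelium was analysed here, so no level can be called raised or lost against untransformed cells.

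The exome data of the study place protein-changing variants of Trp53, Fat1 and Epha2 in every line, and variants of Cdkn2a, Kmt2d and Atm in AOC3 and AOC3-LN but not in AOC11 or AOC11-LN. For the genes with variants in every line, the listed changes differ between the 2 mice. No variant of Casp8 was listed in any line. The listed variants of Kmt2d and Atm include premature stop codons, those of Trp53 include stop codons in all lines with amino acid changes as well in the AOC11 lines, and those of Cdkn2a, Fat1 and Epha2 change amino acids. The mutation status therefore splits the lines by mouse for Cdkn2a, Kmt2d and Atm, and it cannot be told apart from every other difference between the 2 mice. The expression table holds gene totals and does not separate mutant from normal transcripts.

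These genes act at different points of tumor suppression and epithelial growth. Trp53 encodes p53, a transcription factor that halts the cell cycle or starts apoptosis after DNA damage, and Atm encodes a kinase that is activated by DNA double-strand breaks and signals to p53. Cdkn2a is an unusual gene with alternative first exons that encode unrelated proteins: p16-Ink4a, which inhibits the cyclin-dependent kinases 4 and 6 and so keeps Rb active, and Arf, which restrains the p53 inhibitor Mdm2. Fat1 is a giant cadherin of epithelial cell contacts with links to Hippo signaling, Kmt2d is a histone H3 lysine 4 methyltransferase that marks enhancers, Epha2 is a receptor tyrosine kinase for A-type ephrins, and Casp8 is the initiator caspase of death receptors.

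The regulatory sequence is shown for Cdkn2a and Epha2, the members with a difference over 2-fold, and for both starts of Cdkn2a because a gene-level value cannot tell its transcripts apart. Each run lies upstream of a RefSeq transcription start on build GRCm38.p6 and is written 5′ to 3′ on the strand of the gene. Capitals mark a GC box, GGGCGG on either strand, or a match to the E2F site TTTNGCGC on either strand. The distal start of Cdkn2a, at chr4:89294654-89294869 on the minus strand, is that of the Arf transcript, and 34 bases of the window that lie in the annotated first exon were left out. The proximal start, at chr4:89282193-89282442 on the same strand, is that of the Ink4a transcript, and the Epha2 window is chr4:141300971-141301220 on the plus strand.
Cdkn2a distal: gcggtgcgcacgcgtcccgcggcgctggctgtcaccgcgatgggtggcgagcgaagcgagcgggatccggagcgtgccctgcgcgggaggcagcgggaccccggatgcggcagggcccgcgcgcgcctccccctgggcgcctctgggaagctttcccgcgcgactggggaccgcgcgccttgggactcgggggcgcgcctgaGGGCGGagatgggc
Cdkn2a proximal: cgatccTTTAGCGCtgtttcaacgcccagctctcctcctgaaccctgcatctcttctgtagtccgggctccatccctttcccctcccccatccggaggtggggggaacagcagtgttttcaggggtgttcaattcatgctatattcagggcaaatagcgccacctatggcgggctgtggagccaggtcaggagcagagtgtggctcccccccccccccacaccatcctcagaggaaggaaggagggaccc
Epha2: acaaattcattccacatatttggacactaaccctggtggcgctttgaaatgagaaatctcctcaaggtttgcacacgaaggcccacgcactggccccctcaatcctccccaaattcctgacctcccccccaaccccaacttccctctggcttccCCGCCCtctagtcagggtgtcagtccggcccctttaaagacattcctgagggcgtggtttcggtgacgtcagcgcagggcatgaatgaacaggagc
The whole 250-base window of the distal Cdkn2a start held 2 GC boxes, had a GC content of 78.4% and an observed to expected CpG ratio of 1.08, the form of a CpG island. The proximal window was less GC-rich, at 60.0%, with a CpG ratio of 0.32, no GC box and 1 E2F match, a motif found in 1.13% of all 32851 RefSeq promoter windows of that length. The Epha2 window had a GC content of 55.6%, a CpG ratio of 0.49 and 1 GC box, against medians of 52.4% and 0.37 over all windows. Of the 8 windows of the 7 genes, 4 held a GC box, a motif in 32.7% of all windows. The Fat1 and Casp8 windows lie inside the annotated gene, downstream of its first annotated base. The letters TATAAA, in 12.4% of all windows, occurred in 1 of the 8, that of Trp53. That match lay on the opposite strand at the end of the window farthest from the start. The AP-1 site TGANTCA, in 6.75% of all windows, occurred in 0. All 4 motifs were searched on both strands, and a match describes the letters and not a bound factor.

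All 4 lines carried epithelial transcripts, with 9 of 10 epithelial markers above 1 FPKM in each of them and the summed level of the 10 between 3452.9 and 3569.2 FPKM. The tenth, Trp63, was above 1 FPKM only in the AOC3 lines. The near-equal sums hide differences of single markers between the mice. Krt5 had 499 and 275 FPKM in the AOC3 lines against 4.99 and 17.0 in the AOC11 lines. Krt7 had 13.0 and 5.91 FPKM in the AOC3 lines against 635 and 306. Fibroblast markers summed to between 0.246 and 1.23 FPKM with 0 of 9 above the filter, endothelial markers to between 0.327 and 0.481 FPKM with 0 of 5, and immune markers to between 9.31 and 27.0 FPKM with 2 of 9, Cd68 and Csf1r, while Cd3e and Adgre1 were listed at 0 in every line. The values are not counts, and the spacing of low values placed the libraries at about 28300000 to 33800000 fragments. On that estimate, and taking the transcript with the longest coding sequence, each member rested on 900 to 27750 fragments per line. This gives a counting error of at most 3.33%. In these bulk libraries, fewer cells that express a gene and less RNA of it per cell cannot be told apart.

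Cdkn2a was the member with the highest mean level and Atm the one with the lowest. Cdkn2a ranked between the 94.2 and 97.8 percentile of 11373 expressed protein-coding genes of a line, and Epha2 between 87.8 and 97.0. Trp53 ranked between 88.5 and 92.6, so the p53 transcript was abundant in every line. Fat1 lay between the 63.2 and 79.7 percentile and Casp8 between 63.3 and 74.7. Kmt2d, between 36.8 and 45.2, and Atm, between 17.8 and 21.3, were in the lower part of the range. Their coding sequences are long, at 16764 bases for Kmt2d and 9198 for Atm, against a median of 1353 for these genes. Fat1, with 13935 coding bases, was also long but had a higher level than both in every line, while Cdkn2a has 507 and Trp53 1170. In AOC3-LN Epha2 stood above Cdkn2a, and in AOC11-LN Trp53 stood above Epha2. Fat1 and Casp8 changed places between lines, with Fat1 the higher in AOC3-LN and AOC11.

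**Figure D1:**
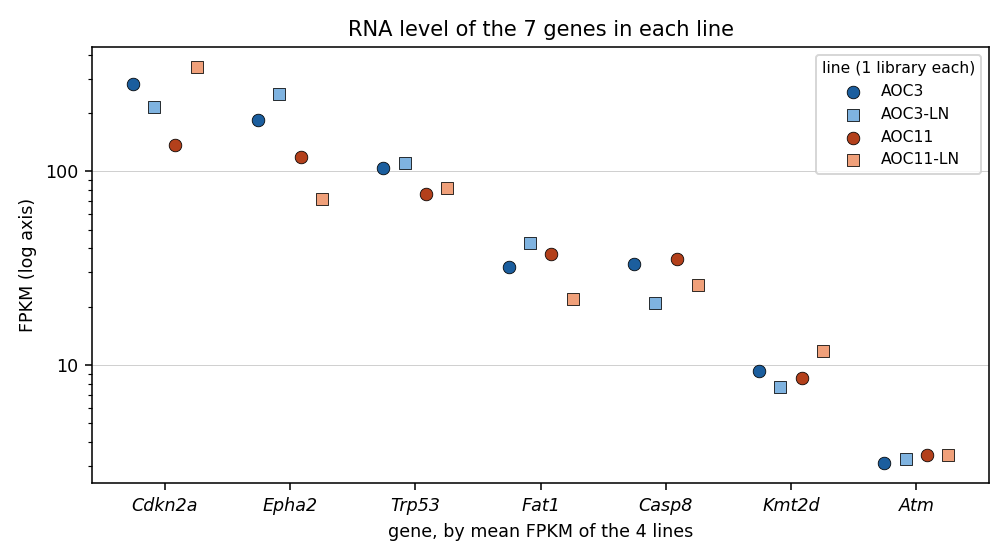
RNA level of the 7 genes in each of the 4 lines, in FPKM on a log axis, with genes ordered by their mean. Circles are primary tumor lines and squares lymph node lines, 1 library each. Cdkn2a spans 137 to 345 FPKM and Epha2 72.3 to 251, while Atm stays between 3.09 and 3.43.

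To compare the 2 mice, levels were quantile-normalized on the log2(FPKM + 1) scale, and limma was fitted to all 14155 genes, treating the 2 lines of each mouse as if they were replicates. Its p-values thus set the difference between the mice against the spread between a primary and a metastatic line. limma adjusts that spread with information from all genes. The p-values describe these lines, since each group is 1 mouse. With Benjamini-Hochberg adjustment over all genes, limma called 0 of the 7 members, against 0.205% of all genes. At an unadjusted p under 0.05 it called 2 of 7, Epha2 and Trp53, against 18.7% of all genes. By size, 1 of the 7, Epha2, exceeded 2-fold with the AOC3 lines higher, against 5.11% of all genes, and 0 exceeded it with the AOC11 lines higher, against 6%. In either direction this is 1 of 7, against 11.1%. On the normalized scale, both AOC3 lines lay above both AOC11 lines in 2 of the 7, Trp53 and Epha2. On that scale 53.1% of all genes had groups that did not overlap. With 7 members a single gene is the smallest count above 0, so these counts are read as values of named genes and not as a result about the group. The median difference of the members was 0.19, against 0.01 over all genes.

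Epha2 (ENSMUSG00000006445.3, chr4:141301240-141329384, plus strand, mm10) had 183 FPKM in AOC3, with 251 in AOC3-LN, against 118 in AOC11 and 72.3 in AOC11-LN. Both AOC3 lines were above both AOC11 lines, and the metastatic lines were the extremes. The normalized difference was 1.23 ± 0.31 (SE) on the log2 scale, a ratio of 2.35, with an adjusted p of 0.163 in limma. Between the lymph node lines alone the FPKM ratio was 3.46, and between the primary lines 1.55. Without AOC11-LN the log2 difference was 0.86, under 2-fold, and over the fits without 1 other line it ran from 1.01 to 1.60. Variants of Epha2 were listed in all the lines, but not the same ones in both mice.

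Trp53 (ENSMUSG00000059552.13, chr11:69580359-69591873, plus strand) had 104 FPKM in AOC3, with 110 in AOC3-LN, against 76.5 in AOC11 and 82.1 in AOC11-LN. The lines of a mouse were close to each other, and the AOC3 lines were above the AOC11 lines at both sites. The difference of 0.48 ± 0.15 on the log2 scale, a ratio of 1.39, had an adjusted p of 0.217 in limma. Trp53 was the member with the smallest standard error. Wrap53, on the opposite strand and starting 104 bases from Trp53, was measured at 11.6, 14.7, 10.6 and 9.49 FPKM in the order above, and its level was well below that of Trp53. The library kit keeps strand, but whether strand was used in the counting is not given in the sources used here, so reads of overlapping transcripts on opposite strands cannot be told apart.

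Cdkn2a (ENSMUSG00000044303.6, chr4:89274471-89294653, minus strand) had 282 FPKM in AOC3, with 216 in AOC3-LN, against 137 in AOC11 and 345 in AOC11-LN. The AOC11 lines held both the lowest and the highest value, with both AOC3 lines between them. The difference between the mice of 0.19 ± 0.45 on the log2 scale was smaller than its error, with an adjusted p of 0.843 in limma. It was 0.83 without AOC11-LN and -0.45 without AOC11. A Cdkn2a variant was listed in the AOC3 lines only, and transcript was abundant in lines with and without it.

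Kmt2d (ENSMUSG00000048154.17, chr15:98831669-98871204, minus strand) had 9.25 FPKM in AOC3, with 7.65 in AOC3-LN, against 8.55 in AOC11 and 11.8 in AOC11-LN. The groups overlapped, and the difference was -0.17 ± 0.24 (adjusted p = 0.729 in limma). Atm (ENSMUSG00000034218.16, chr9:53439149-53536740, minus strand) was measured at 3.09, 3.25, 3.43 and 3.42 FPKM in the order AOC3, AOC3-LN, AOC11, AOC11-LN. It was the steadiest member, with a highest to lowest ratio of 1.11, and its normalized difference was 0.00 ± 0.25 (adjusted p = 1.0 in limma). In FPKM both AOC3 lines lay below both AOC11 lines for Atm, and without quantile normalization its log2 difference was -0.09. For both Kmt2d and Atm a stop codon variant was listed in the AOC3 lines and none in the AOC11 lines. Their error allows differences of some size in either direction, so these values do not show that the lines were alike.

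Fat1 (ENSMUSG00000070047.14, chr8:44935447-45052257, plus strand) had 32.1 FPKM in AOC3, with 42.4 in AOC3-LN, against 37.3 in AOC11 and 22.0 in AOC11-LN. AOC11-LN was the low line, and AOC11 lay between the AOC3 lines. The difference was 0.39 ± 0.31 (adjusted p = 0.526 in limma). Gm2366, an antisense transcript that overlaps Fat1 over 5170 bases, was near 1 FPKM, between 0.732 and 1.89. Casp8 (ENSMUSG00000026029.14, chr1:58795374-58847503, plus strand) had 33.3 FPKM in AOC3, with 20.9 in AOC3-LN, against 35.1 in AOC11 and 25.9 in AOC11-LN. Both primary lines were above both lymph node lines, and the difference between mice was -0.13 ± 0.29 (adjusted p = 0.833 in limma). Gm37760, a transcript on the same strand inside Casp8, was at most 0.0629 FPKM.

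**Figure D2:**
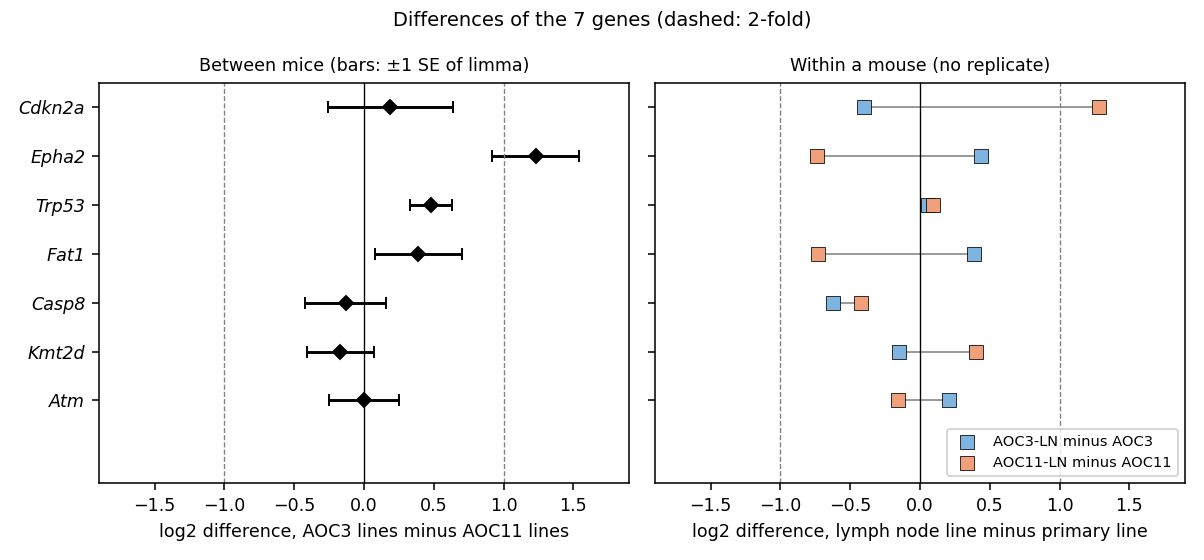
Left, normalized log2 difference of each gene between the AOC3 lines and the AOC11 lines, with bars of 1 SE from limma. Right, the difference between the lymph node line and the primary line in each mouse, 1 library per line. Epha2 is at 1.23 on the left, and on the right the shifts of Cdkn2a are -0.40 and 1.28.

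The next comparison, of metastatic with primary line in the same mouse, has 1 library per line and so no replicate check. In the AOC3 mouse 0 of the 7 members passed a 2-fold difference, against 5.53% of all genes. In the AOC11 mouse 1 of 7 did, Cdkn2a, against 8.1%. Cdkn2a shifted by -0.40 in the AOC3 mouse and by 1.28 in the AOC11 mouse on the log2 scale, and in FPKM AOC11-LN was 2.52 times AOC11. Epha2 shifted by 0.44 and -0.74, and Fat1 by 0.39 and -0.73, each higher in AOC3-LN and lower in AOC11-LN than in the primary line. Kmt2d shifted by -0.15 and 0.40, and Atm by 0.21 and -0.16, both within 1.5-fold. The Atm shifts came largely with quantile normalization. Its FPKM ratio of lymph node to primary line was 1.05 in the AOC3 mouse and 0.998 in the AOC11 mouse. After quantile normalization Trp53 had the smallest shifts, 0.06 and 0.09. Under median scaling the Trp53 shifts were 0.17 and 0.12, larger than the 0.12 and 0.02 of Atm.

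The shifts had opposite signs in the 2 mice for 5 of the 7 members, against 51.9% of all genes. The count was 4 of 7 under median scaling, where the Atm shifts were 0.12 and 0.02. The shifts lay over 1 log2 unit apart for 3 of the 7, Cdkn2a, Fat1 and Epha2, against 15.6%. Casp8 was the 1 member of 7 that was lower in the lymph node line of both mice, with shifts of -0.62 and -0.42, against 22.3% of all genes. These are counts over 7 genes with 1 library per line, and they were not tested.

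Of the 7 genes, 2 had normalized levels spanning more than 1 log2 unit over the lines, Cdkn2a and Epha2, against 28.3% of all genes. Likeness to them was measured as the root mean square difference of profiles centred on their own mean, over the 4 lines and 11372 other protein-coding genes. The nearest to Cdkn2a were Sigirr at 0.033, Myl12b at 0.052 and Acap1 at 0.058. Sigirr, a negative regulator of interleukin-1 receptor signaling, was measured at 27.1, 20.6, 13.9 and 32.8 FPKM in the order AOC3, AOC3-LN, AOC11, AOC11-LN, a dip in AOC11 like that of Cdkn2a at a lower level. Nearest to Epha2 were D16Ertd472e at 0.038, Cntfr at 0.054 and Me2 at 0.076. Cntfr, the alpha receptor of ciliary neurotrophic factor, was measured at 23.3, 32.5, 15.7 and 9.74 FPKM. With 4 points per profile and so many genes, close profiles are a description and nothing more.

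Cdkn2b, the next gene upstream of Cdkn2a and on the same strand, encodes p15-Ink4b, another inhibitor of the same kinases. It had 55.4 FPKM in AOC3, with 28.6 in AOC3-LN, against 33.4 in AOC11 and 112 in AOC11-LN. Like Cdkn2a it was highest in AOC11-LN and lower in the metastatic line of the AOC3 mouse, with shifts of -0.94 and 1.70. Mtap, the methylthioadenosine phosphorylase gene on the other side of Cdkn2a, shifted by -0.22 and 0.25. Within 500 kb of the start of Cdkn2a, 6 other genes passed the filter. Of these, 0 differed over 2-fold between the mice, against 11.1% of all genes. In AOC11-LN 1 was over 2-fold higher than in AOC11, Cdkn2b, against 8.1% of all genes in either direction. Another, the noncoding RNA gene Wincr1, was over 2-fold higher in AOC3-LN than in AOC3, with shifts of 1.5 and -0.58, opposite in sign to those of Cdkn2a.

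Of the 25 other genes within 500 kb of Epha2, 20 of them protein-coding, 3 passed 2-fold with the AOC3 lines higher and 0 with the AOC11 lines higher, against 5.11% and 6% of all genes. They were Gm13056 at 1.43, a noncoding RNA gene whose start lies at -22.8 kb, the antisense gene Gm13075 at 1.03 and the peptidylarginine deiminase gene Padi1 at 1.01. The neighbor Arhgef19, a guanine nucleotide exchange factor gene, went the other way from Epha2, with 6.04, 2.04, 3.19 and 10.5 FPKM and shifts of -1.10 and 1.38. Fam131c, on the far side, differed by 0.40 between the mice. Beside Casp8, Cflar, which encodes the Casp8 inhibitor c-FLIP, had 50.2 and 49.3 FPKM in the AOC3 lines against 27.7 and 25.1 in the AOC11 lines. That difference of 0.96 ± 0.17, just under 2-fold, had an adjusted p of 0.102 in limma, against -0.13 for Casp8. Prkag1 and Npat, the nearest genes to Kmt2d and Atm, differed by -0.10 and 0.43.

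**Figure D3:**
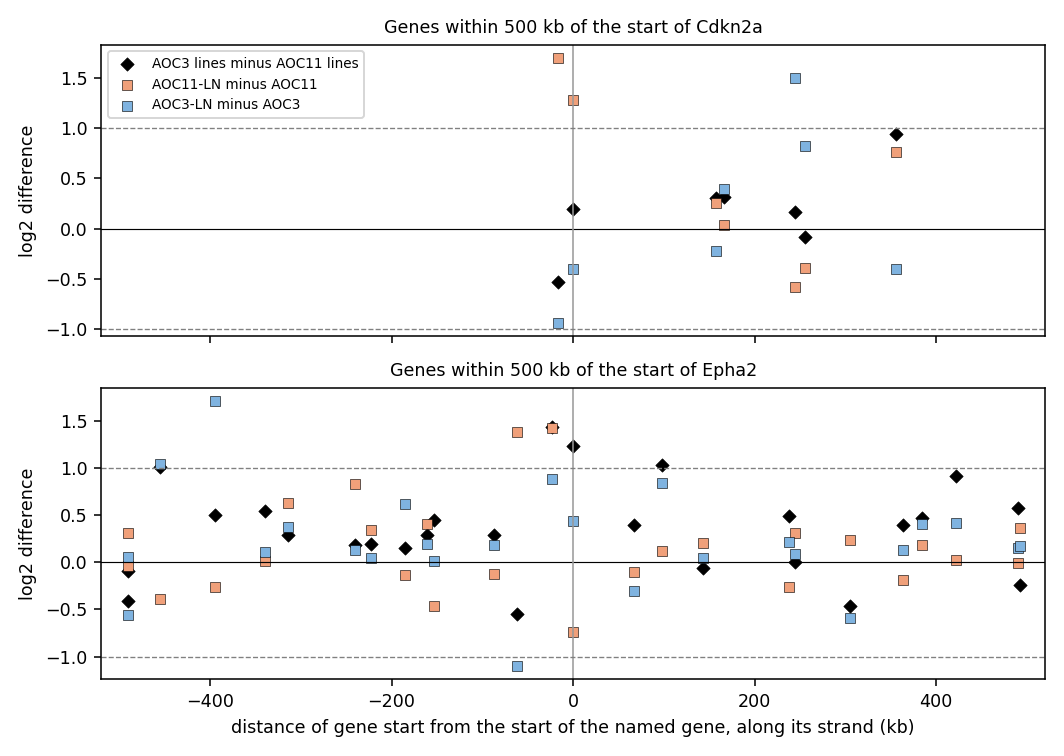
Normalized log2 differences of genes that passed the filter, by the distance of their start from that of Cdkn2a (top) or Epha2 (bottom), in kb along the strand of the named gene. In the top panel Cdkn2b, at -16.4 kb, is at 1.70 for AOC11-LN minus AOC11, beside Cdkn2a at 1.28. In the bottom panel Epha2 is at 1.23 for AOC3 lines minus AOC11 lines.

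The genes around each member's pathway were then read by 2-fold counts, since limma called 0 genes of any of the 7 pathway lists after adjustment. Of 28 regulators and targets of p53, 26 passed the filter, 4 were over 2-fold higher in the AOC3 lines and 0 were lower, with a median difference of 0.08, against 5.11% of all genes higher and 6% lower. The 4 were Pmaip1, which encodes the death protein Noxa, at 2.15, Cdkn1a, the p21 cell cycle inhibitor, at 1.30, Trp63, a p53 family member of basal epithelium, at 1.12, and the kinase gene Plk2 at 1.10. Trp63 passed the filter through the AOC3 lines alone, with 1.69 and 2.10 FPKM there against 0.0848 and 0.841, and so could enter the count in that direction only. In AOC11-LN against AOC11, Pmaip1 and Plk2 were lower, with shifts of -1.96 and -1.28, and Trp53inp1 was higher, at 1.13. Cdkn1a had 14.6 and 23.8 FPKM in the AOC3 lines against 6.97 and 7.64 in the AOC11 lines, and its adjusted p was 0.142 in limma.

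Of 22 genes of the Cdkn2a and Rb axis, all 22 passed. Of these, 0 were over 2-fold higher in the AOC3 lines and 1 was lower, against 5.11% and 6% of all genes. The lower gene was Cdkn2d, the p19-Ink4d inhibitor, at -1.40. In AOC11-LN, Cdkn2b was the 1 gene that was higher and Ccnd2, cyclin D2, the 1 that was lower, at -1.19. Over all genes, 8.1% passed 2-fold there in either direction. Of 26 Fat cadherin and Hippo genes 20 passed, and Fat2, Fat3, Fat4, Dchs1 and Dchs2 were below the filter in every line, so of these cadherins Fat1 alone was above it. Tead2, a partner of the Hippo effector Yap1, was over 2-fold lower in the AOC3 lines at -3.21, with 4.05, 1.30, 19.1 and 54.3 FPKM in the usual order of lines. In AOC11-LN, Tead2 was the 1 gene of the list over 2-fold higher, at 1.48. There 4 genes were lower, the Yap1 targets Ankrd1 at -2.34, Ccn1 at -2.29 and Ccn2 at -1.25 and the kinase gene Lats2 at -1.35. Over all genes, 8.1% passed 2-fold in either direction between AOC11-LN and AOC11, with 1 library each. The Fat1 shift in the same line was -0.73. In AOC3-LN Fat1 shifted by 0.39, while Ankrd1, Ccn1, Ccn2 and Lats2 shifted by -0.79, -0.79, -0.34 and -0.29. A link of Fat1 to these genes was not tested. The median shift of the list in AOC11-LN was -0.36, against -0.02 over all genes, and in AOC3-LN it was -0.11 against 0.02. In AOC3-LN 1 gene of the list passed 2-fold, Tead2, lower at -1.0, against 5.53% of all genes in either direction.

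The 16 partners and relatives of Kmt2d all passed the filter and 0 crossed 2-fold in any comparison. The same was true of the 21 genes of Atm and DNA damage signaling, whose median difference between the mice was 0.25. Over all genes, 11.1% crossed 2-fold between the mice, 5.53% in AOC3-LN and 8.1% in AOC11-LN. Of 21 Eph receptors and ephrins 11 passed. Efnb2, a ligand of EphB receptors, was over 2-fold higher in the AOC3 lines at 1.46, with 28.5 and 33.9 FPKM against 11.8 and 10.6. Efna4, an A-type ligand, was lower there at -1.15, with 2.87 and 1.15 FPKM against 2.67 and 10.5. AOC3 and AOC11 were close in Efna4, so this difference rests on the lymph node lines. In AOC11-LN the A-type ligands Efna4 and Efna1 were higher than in AOC11 by 1.54 and 1.04. Of the other A-type ligands that passed the filter, Efna2 shifted by 0.77 and Efna5 by -0.05 in that line. Efna2 passed it through AOC11-LN alone, with 1.65 FPKM there against 0.303 in AOC11, and so could only be higher in that line. In AOC3-LN, Efna4 and Efna1 both shifted by -0.72. A link to the Epha2 level was not tested. Ephb6, which lacks kinase activity, was lower in AOC3-LN, at -1.28. Of 26 genes of death receptor and caspase signaling 23 passed, with a median difference of -0.14. Of these, 1 was over 2-fold higher in the AOC3 lines and 3 were lower, against 5.11% and 6% of all genes. The lower ones included Casp12 at -1.35 and Birc3, an inhibitor of apoptosis gene, at -1.10. Birc3 had 8.21 and 1.36 FPKM in the AOC3 lines against 12.5 and 7.2 in the AOC11 lines, so its groups overlapped. Casp12 passed the filter through the AOC11 lines alone, with 1.55 and 3.34 FPKM there against 0.577 and 0.065. It could thus enter the count in that direction only. In AOC3-LN, where Casp8 was lowest, Birc3 was lower than in AOC3, at -1.85.

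Of the 18 genes of the mutation panel, the largest differences between the mice were those of Fgfr1 and Notch1. Of the 11 panel genes outside the 7 described above, 9 passed the filter. Of these, 0 were over 2-fold higher in the AOC3 lines and 2 were lower, against 5.11% and 6% of all genes. Notch1, a receptor with variants listed in the AOC11 lines, had 2.66 and 0.777 FPKM in the AOC3 lines against 13.0 and 12.7 in the AOC11 lines, a difference of -2.37 ± 0.37 with an adjusted p of 0.0944 in limma. Fgfr1, a receptor with a variant listed in the AOC3 lines, had 20.3 and 5.71 FPKM there against 65.7 and 70.5 in the AOC11 lines, a difference of -2.46 ± 0.53 with an adjusted p of 0.133. Hras, Erbb2 and Pik3ca had differences of -0.51, -0.36 and -0.30, and Nsd1, Nf1, Traf3 and Notch2 of 0.45, 0.30, 0.19 and 0.05. Fgfr2 and Sox2 were below the filter in all lines. None of these passed the adjusted threshold either.

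**Figure D4:**
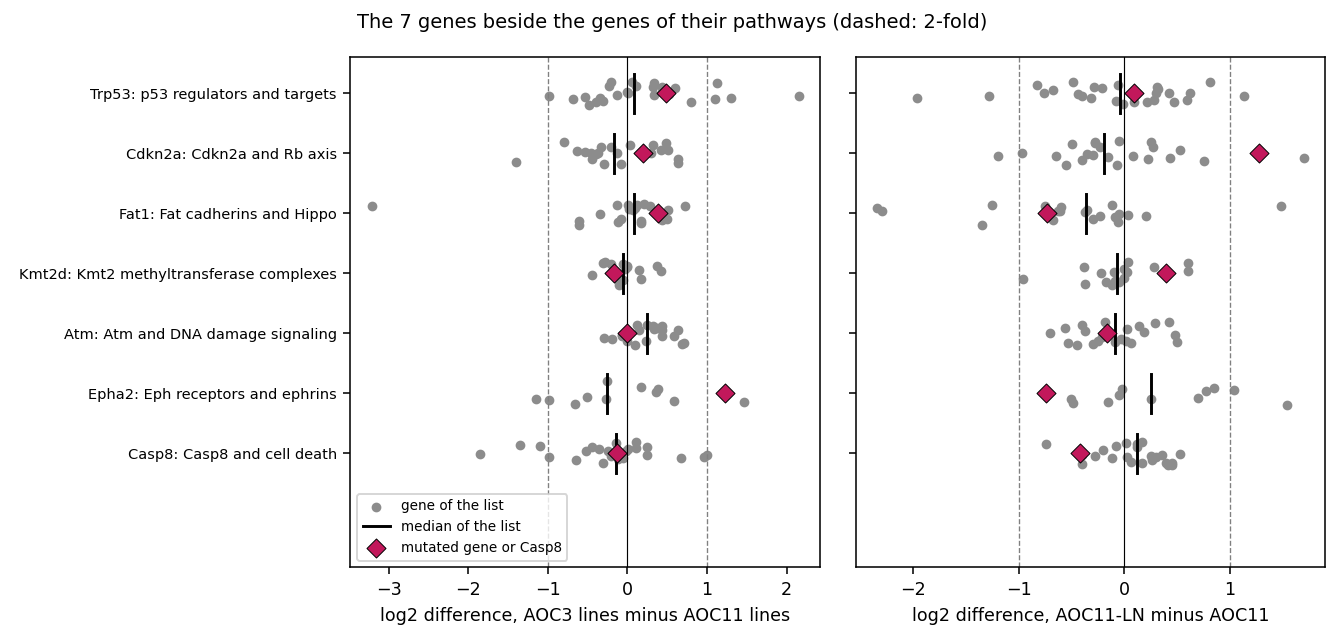
Normalized log2 differences of the 7 genes (diamonds) beside the genes of their pathway lists that passed the filter (grey points, with the list's median as a bar), for AOC3 lines minus AOC11 lines on the left and AOC11-LN minus AOC11 on the right. Epha2 lies at 1.23 on the left, where the median of its list is -0.25, and Cdkn2a at 1.28 on the right, where that of its list is -0.19.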

How the data were processed

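Each of the 4 lines gave 1 paired-end RNA library. The authors trimmed reads with Trim Galore, mapped them to mm10 with TopHat2 and estimated the deposited FPKM values with Cufflinks on GENCODE M21, in versions not given in the sources used here. The columns hold linear values without the quantile normalization that the methods name. Values were therefore put on the log2(FPKM + 1) scale and quantile-normalized across the whole table, and a gene was tested if any line reached 1 FPKM. Differences on this scale understate changes of low genes. Of the 34721 entries, 29 identifiers had more than 1, and the entry with the highest mean was used. limma 3.58.1 in R 4.3.3 (lmFit, eBayes with trend) was used with Benjamini-Hochberg adjustment, and was tested on simulated data. Over 2-fold means a log2 difference larger than 1 in size.

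The members and gene lists were chosen with earlier results of these data known. The named genes are the 7 members, up to 3 genes with the largest differences of each list and comparison, the 11 other panel genes, neighbors of members and the 3 genes most like a member whose levels span over 1 log2 unit. Plk2, Lats2, Ccn2, Padi1, Wincr1, Gm13056, Gm13075, Krt5, Krt7, Efna2, Efna5, the cadherins below the filter and the immune markers were named after their values were seen. Library size was estimated from the spacing of low FPKM values of genes with 1 transcript, of which 73.6% to 76.5% were whole multiples of 1 step, to within 0.1. Allele fractions were not used here, and some genes of the lists are not reported here. Promoter windows came from RefSeq (8 windows for the 7 genes). Alternatives were another pseudocount, 2 other scalings, 2 other filters, protein-coding genes only, another variance prior, a block for the site, another fold threshold and leaving out each line.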

Additional observations from a re-analysis of the deposited data

Results flagged for a closer look

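For 5 of the 7 genes the lymph node line moved one way in the AOC3 mouse and the other way in the AOC11 mouse. The shift in the AOC3 mouse minus that in the AOC11 mouse was -1.68 on the log2 scale for Cdkn2a, 1.13 for Fat1, -0.55 for Kmt2d, 0.37 for Atm and 1.18 for Epha2. These differences between the mice were not tested, since each line is 1 library, and opposite signs occurred in 51.9% of all genes. For Atm the opposite signs rest on the scaling: under median scaling its shifts were 0.12 and 0.02, and 4 of the 7 genes were left.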

How the results depend on the processing

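Of 165 log2 differences of the members under the alternatives, 5 between the mice reversed, each in leaving out 1 line, and no member crossed the adjusted p threshold of limma. The Atm shift of -0.16 in AOC11-LN was 0.02 under median scaling, and the Atm difference between the mice, 0.00, ranged from -0.11 to 0.11. Over the 4 fits without 1 line the Cdkn2a difference ranged from -0.45, without AOC11, to 0.83, and was -0.01 without AOC3. That of Kmt2d ranged from -0.36 to 0.03, without AOC11-LN, and that of Casp8 from -0.44 to 0.18, without AOC3-LN, with 0.08 without AOC11. The cause was not tested. Over the alternatives, the adjusted p of Epha2 ranged from 0.0917 to 0.676 and that of Trp53 from 0.176 to 0.686.

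The count of 29 genes called by limma between the mice fell to 0 with no filter on low values, where 34685 genes were tested, and was 50 with a filter of 5 FPKM and 256 with protein-coding genes only. It was 0 to 0 over the 4 fits without 1 line, in which the lone line of a mouse is assumed to vary like the other. With the site as a replicate block it was 31, and this block changed no call of a member. The 1573 genes past 2-fold between the mice became 2624 with a pseudocount of 0.1 and 3812 at 1.5-fold, and 1456 to 1956 without 1 line. The 783 genes between AOC3-LN and AOC3 became 1442, 473 with protein-coding genes only and 1947 at 1.5-fold, and the 1147 between AOC11-LN and AOC11 became 2071, 688 and 3479 in the same order. Without AOC11-LN, 0 members passed 2-fold between the mice, so that Epha2 rests on that line, and the range over lines left out was 0 to 1. At 1.5-fold, 1 member passed in the AOC3 mouse, Casp8, and 3 in the AOC11 mouse, Cdkn2a, Epha2 and Fat1. Atm did not reach 5 FPKM and has no value under that filter. The fits rest on 1 mouse per group and 1 library per line, so no alternative adds a replicate.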
